A study of Macaca mulatta with 24 samples.

Results

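RNA-Seq of the nucleus accumbens core (NAcc) was examined in the 7 drinking rhesus macaques of cohort 7a, which are 7 of the 24 animals of the series. These were the 4 heavy drinkers (HD*, made up of 2 animals labelled HD and 2 labelled VHD) and the 3 low drinkers (LD*, all labelled LD) of that cohort, each measured once. Cohort 7a was the only cohort that held both HD* and LD* animals, so cohort did not differ between the groups compared. The animals drank ethanol voluntarily, with water offered at the same time, after an induction on a schedule of food delivery, and tissue was taken at the end of the open-access period with no abstinence imposed. The categories followed how much each animal chose to drink, so they were not assigned. Labelled daily intake was 1.95, 1.82 and 1.85 g/kg in LD* animals 1, 2 and 3, 2.82 and 3.01 g/kg in HD animals 1 and 2, and 3.09 and 3.32 g/kg in VHD animals 1 and 2. The mean was 1.87 ± 0.068 g/kg in LD* (SD, n = 3) and 3.06 ± 0.207 g/kg in HD* (SD, n = 4), which restates how the groups were made. The 2 controls of cohort 7a, which had water on both spouts and a maltose dextrin solution matched for calories, are given beside the drinkers where they bear on a value.

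The NAcc core is the part of the ventral striatum that links cues to motivated action. Most of its neurons are GABAergic medium spiny neurons, which carry dopamine D1 or D2 receptors and receive glutamate from cortex, amygdala and hippocampus and dopamine from the midbrain. Interneurons that release acetylcholine, somatostatin or neuropeptide Y, and the glia common to all brain tissue, make up the rest. Alcohol acts on many of the receptors and ion channels at these synapses, and this region is one of those most studied in relation to alcohol drinking.

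Values were taken as TPM, in which a gene's transcripts are a share of those of all genes, scaled to the same sum in every animal. The depth of each animal's library is therefore unknown here and no counting error can be given. Of 17208 gene symbols, the 9197 that averaged 10 TPM or more across the 24 animals were tested on the log2(TPM + 1) scale, on which all differences below are given, and this scale understates changes of low genes. Markers of medium spiny neurons were abundant in every animal. PPP1R1B, which encodes DARPP-32, stood at 2135, 3253 and 3461 TPM in the LD* animals, 3625 and 3797 TPM in the HD animals and 1695 and 2589.6 TPM in the VHD animals. A marker of cortical projection neurons, SLC17A7 (vesicular glutamate transporter 1), was not near 0 everywhere. It was at 140.0, 0.996 and 0.939 TPM in LD*, 0.866 and 186 TPM in HD, 1.75 and 19.4 TPM in VHD and 119 and 30.5 TPM in the controls, so LD* 1, HD 2 and Control 1 carried most of it and it did not follow the groups. No animal of cohort 7a was left out.

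The animals differed along an axis that was not the division into HD* and LD*. On the first principal component of the 24 animals, which held 43.9% of the variance, VHD 1 scored 36.2 and VHD 2 scored 46.7. HD 1 and HD 2 scored −21.5 and −14.4, within the range of the LD* animals, which scored 13.1, −18.9 and −26.4. Control 2, an animal labelled as a control, scored 43.2, whereas Control 1 scored −20.3. The number of genes at 10 TPM or more was 8389 in VHD 1, 7593 in VHD 2 and 8586 in Control 2, and it lay between 8896 and 9372 in the other 6 animals of the cohort. The 10 most abundant genes took 5.42% of all TPM in VHD 1, 5.92% in VHD 2 and 6.33% in Control 2, and between 3.61% and 4.89% in the others. The pair of VHD animals thus stood apart together with a control of the same cohort. The part that these measures have in the VHD results below was not tested, and no value used here checks an animal's drinking label.

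**Figure D1:**
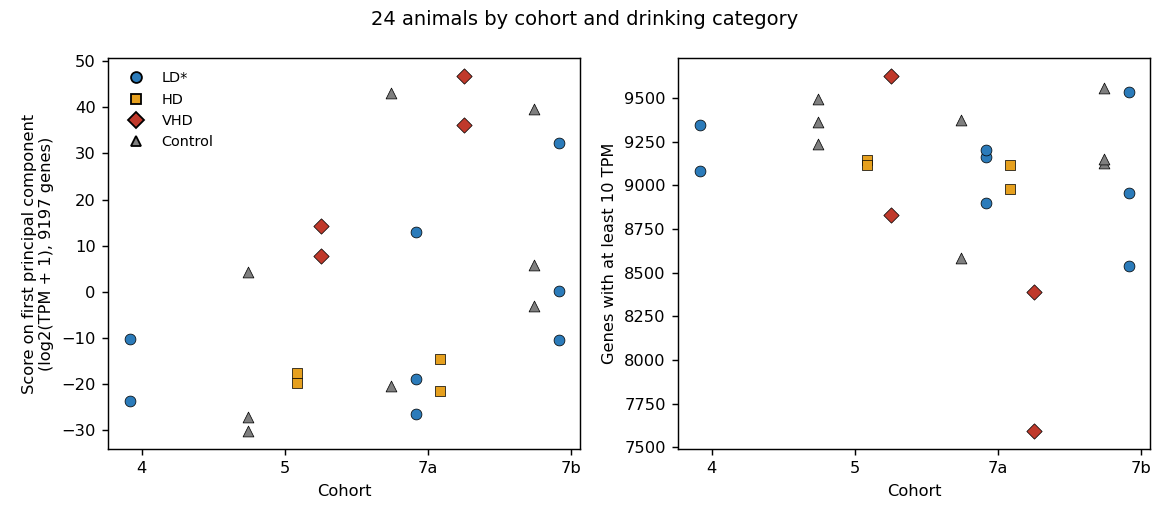
Score on the first principal component (left) and number of genes at 10 TPM or more (right) of each of the 24 animals, by cohort and drinking category, with 1 point per animal. In cohort 7a the VHD animals score 36.2 and 46.7 and a control scores 43.2, while both HD animals lie at −14.4 or below.

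No gene passed the test between HD* and LD* animals of cohort 7a. With limma on 4 against 3 animals, 0 of 9197 genes (0%) had an adjusted p under 0.05 and the smallest adjusted p was 0.697. The unadjusted p was under 0.05 for 105 genes, 38 of them higher in HD* (0.413%) and 67 lower (0.728%). Together these were a smaller share than the 0.05 that the threshold alone gives by chance. The 4 HD* values lay entirely above the 3 LD* values for 93 genes (1.01%) and entirely below them for 325 genes (3.53%). Random assignment of the 7 animals would give each of these separations with a probability of 0.0286 per gene. A lack of overlap therefore does not by itself set a gene named below apart from chance. The exact permutation test over the 35 assignments of the 7 animals can give no p below 0.0286, a value that 85 genes reached. It left 0 genes after adjustment, with an adjusted permutation p of 0.720 for genes at that lowest value. With so few assignments and 9197 genes it could hardly have called any, so this 0 decides nothing. Over all genes tested the median difference was −0.20, and 7095 genes (77.1%) were lower in HD*. After rescaling by a trimmed mean of M-values (TMM), which sets the bulk of genes level between animals, that median was 0.003 and the genes at an unadjusted p under 0.05 turned to 138 higher and 48 lower. Differences below are therefore to be read against a shift of about −0.20 over all genes on the deposited scale. With 0 genes called in all, a 0 for any gene list in HD* minus LD* says nothing particular about that list.

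The spread within the groups was unequal. Over all genes, the median SD of log2 values was 0.374 among the 4 HD* animals and 0.208 among the 3 LD* animals. Taken alone, the pair of HD animals had a median SD of 0.0949 and the pair of VHD animals 0.197, both below that of the 4 HD* animals. A median SD from fewer animals tends to come out lower, so these values are not strictly comparable between groups of different size. Against LD*, the HD and VHD means lay on opposite sides for 5115 of the 9197 genes. This count came with medians over all genes of 0.007 for HD minus LD* and −0.41 for VHD minus LD*.

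The 20 genes with the smallest p are given as values, since none passed after adjustment. Each of them kept its direction in every alternative in which it was tested. They were picked by p in these same animals, which the alternatives refit, so this was close to given. KLK8, which encodes the brain serine protease neuropsin, was at 8.22, 6.28 and 9.60 TPM in LD*, 23.0 and 18.6 TPM in HD and 11.7 and 29.1 TPM in VHD, a difference of 1.21 ± 0.31 (SE; adjusted p = 0.697). All 4 HD* animals lay above the LD* animals. Of the controls, at 12.6 and 8.09 TPM, Control 1 was above VHD 1 and Control 2 lay among the LD* animals. CD3D, a subunit of the T cell receptor complex, was at 8.22, 11.3 and 15.3 TPM in LD*, 20.2 and 28.1 TPM in HD and 18.4 and 35.1 TPM in VHD, with a difference of 1.06 ± 0.29. Its groups did not overlap, but the controls stood at 32.5 and 4.07 TPM, a range as wide as that of all 7 drinkers. APOL2, an apolipoprotein L gene, was at 31.9, 35.5 and 21.5 TPM in LD*, 53.5 and 66.9 TPM in HD and 40.5 and 58.1 TPM in VHD, and the controls at 32.5 and 34.5 TPM lay among the LD* animals.

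CLDN5, a tight junction protein of brain endothelium, was at 47.0, 53.4 and 53.4 TPM in LD*, 83.1 and 64.0 TPM in HD and 88.2 and 68.8 TPM in VHD. The controls were at 54.6 and 55.3 TPM, just above the highest LD* animal and below every HD* animal, and the HD* minus LD* difference was 0.55 ± 0.17 (adjusted p = 0.697, exact permutation p = 0.0286). PCSK1N, which encodes proSAAS, an inhibitor of a prohormone convertase, was at 518, 658 and 574 TPM in LD*, 888 and 830.4 TPM in HD and 787 and 898 TPM in VHD. For PCSK1N the controls fell on both sides, at 558 and 970.2 TPM. HAGHL, a gene related to the glyoxalase hydrolase, was at 44.9, 41.8 and 42.1 TPM in LD* and at 52.9 and 71.6 TPM in HD and 67.2 and 93.1 TPM in VHD. C1QL2, a secreted synaptic organizer, was at 34.8, 30.3 and 26.9 TPM in LD*, 53.0 and 35.8 TPM in HD and 45.2 and 68.2 TPM in VHD, with no overlap. For GJB1 (connexin 32 of oligodendrocytes), SERPINB9 (an inhibitor of granzyme B) and FAM173A the groups overlapped, and the differences were 0.75 ± 0.25, 0.70 ± 0.25 and 1.17 ± 0.42. FAM173A was carried by the VHD animals, at 125 and 204 TPM, against 82.1 and 49.3 TPM in HD and 55.6, 39.0 and 39.7 TPM in LD*.

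Among the 10 genes lower in HD*, WIF1, a secreted inhibitor of Wnt ligands, was at 129, 86.7 and 132 TPM in LD*, 62.4 and 81.2 TPM in HD and 70.6 and 66.3 TPM in VHD. Its difference was −0.70 ± 0.20 (adjusted p = 0.697), HD and VHD differed little, and the controls at 69.1 and 54.8 TPM lay with the HD* animals and not with the LD* animals. PABPC1, the poly(A) binding protein of the cytoplasm, was at 181, 190.0 and 219.6 TPM in LD*, 152 and 125 TPM in HD and 139 and 127 TPM in VHD, a difference of −0.53 ± 0.16. Its groups did not overlap either, and the controls at 164 and 175 TPM lay between them. GUCY1A3, a subunit of the nitric oxide receptor guanylate cyclase, was at 55.7, 71.8 and 55.9 TPM in LD*, 46.2 and 39.7 TPM in HD and 23.6 and 23.9 TPM in VHD, so the HD animals were intermediate. Both controls, at 37.96 and 25.4 TPM, were below every LD* animal. PTPRZ1, a receptor phosphatase of glia, was at 111, 104 and 93.9 TPM in LD*, 78.6 and 76.1 TPM in HD and 74.5 and 51.7 TPM in VHD, with VHD 2 apart from the other 3 HD* animals.

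RPUSD4, an enzyme of mitochondrial ribosomal RNA, TTC19, an assembly factor of respiratory complex III, HRASLS and TRANK1 also did not overlap between the groups, with differences of −0.75 ± 0.24, −0.60 ± 0.20, −0.65 ± 0.22 and −0.80 ± 0.29. In all 4 the VHD mean was below the HD mean. PDE8B, a cyclic AMP phosphodiesterase, and ZCCHC12 overlapped, with differences of −0.91 ± 0.29 and −1.11 ± 0.37. LD* 1, at 146 TPM of ZCCHC12, lay below VHD 1 at 163 TPM. After TMM rescaling all 20 genes kept their sign.

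**Figure D2:**
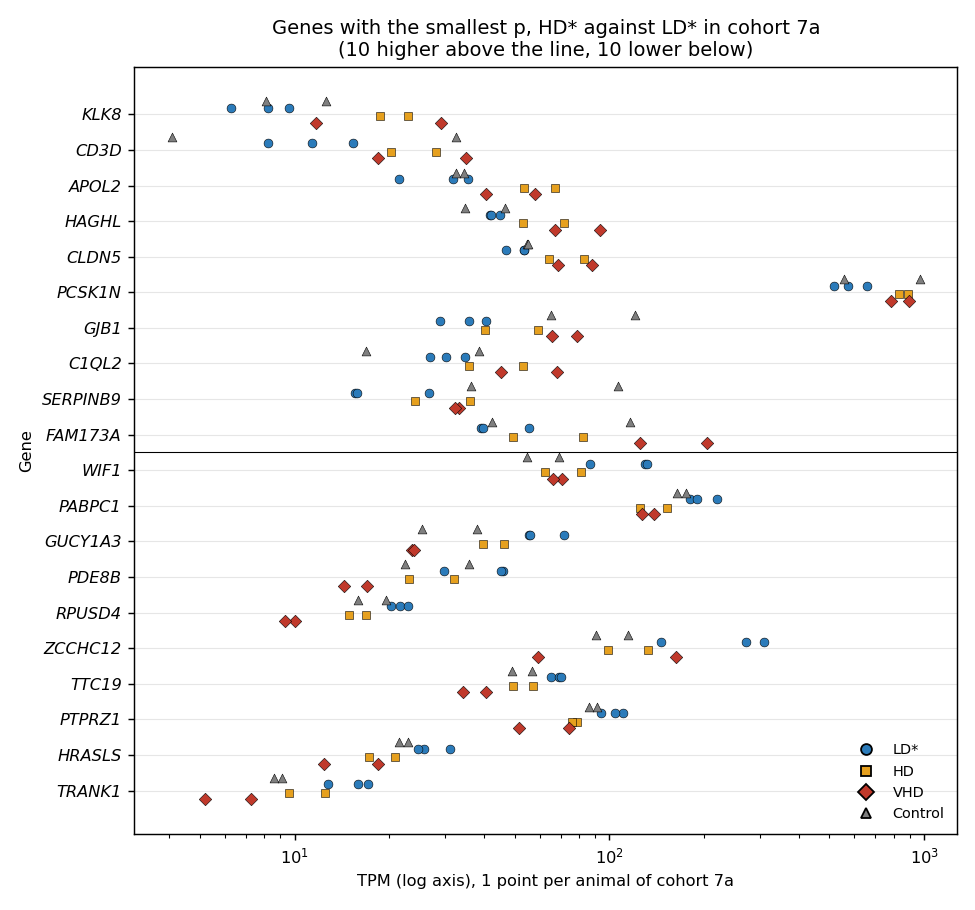
TPM of the 20 genes with the smallest p for HD* against LD*, 10 per direction, with 1 point per animal of cohort 7a on a log axis and the 2 controls as triangles. For KLK8, CD3D, APOL2, HAGHL, CLDN5, PCSK1N and C1QL2 every HD* animal lies above every LD* animal, and none of the 20 genes passed the adjusted test.

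Separating the labelled categories changed the picture. In a model with LD*, HD and VHD as 3 groups, HD minus LD* gave 0 genes higher (0%) and 0 lower (0%) at an adjusted p under 0.05, with a smallest adjusted p of 1.000 and 153 genes at an unadjusted p under 0.05. VHD minus LD* gave 406 genes higher (4.41%) and 3507 lower (38.1%), 3913 in all. VHD minus HD, which tests the difference of these effects, gave 444 higher (4.83%) and 3290 lower (35.8%). The median difference of all genes was 0.007 for HD minus LD*, −0.41 for VHD minus LD* and −0.43 for VHD minus HD, so the excess of lower calls came with a lower median over all genes. After TMM rescaling VHD minus LD* gave 1014 genes higher (11%) and 665 lower (7.23%), of which 404 higher and all 665 lower genes were also called without rescaling. The counts of gene lists below are to be read beside these shares of all genes, 4.41% higher and 38.1% lower as deposited and 11% higher and 7.23% lower after rescaling.

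These calls rested on few animals. Without VHD 2, VHD minus LD* gave 0 genes (smallest adjusted p = 0.108) and VHD minus HD gave 0 (smallest adjusted p = 0.0727). Without LD* 2, VHD minus LD* gave 0 genes (smallest adjusted p = 0.0532), and without LD* 3 it gave 1845. VHD minus HD gave 104 genes without HD 1 and 1105 without HD 2. With the 2 controls of cohort 7a added to the model both counts were 0, with smallest adjusted p of 0.0688 and 0.072, while 4008 and 3889 genes had an unadjusted p under 0.05. With all 24 animals in the model the counts were 3345 and 3055. For 3060 of the 3913 genes (78.2%) Control 2 lay nearer to the VHD mean than to the LD* mean, against 2.20% for Control 1, 1.48% for HD 1 and 2.38% for HD 2. LD* 1, set against the other LD* animals, lay nearer to the VHD mean for 32.5%. For most of these genes, then, an animal labelled as a control stood nearer the VHD level, and drinking category and whatever else Control 2 and the VHD animals share cannot be told apart for these genes.

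**Figure D3:**
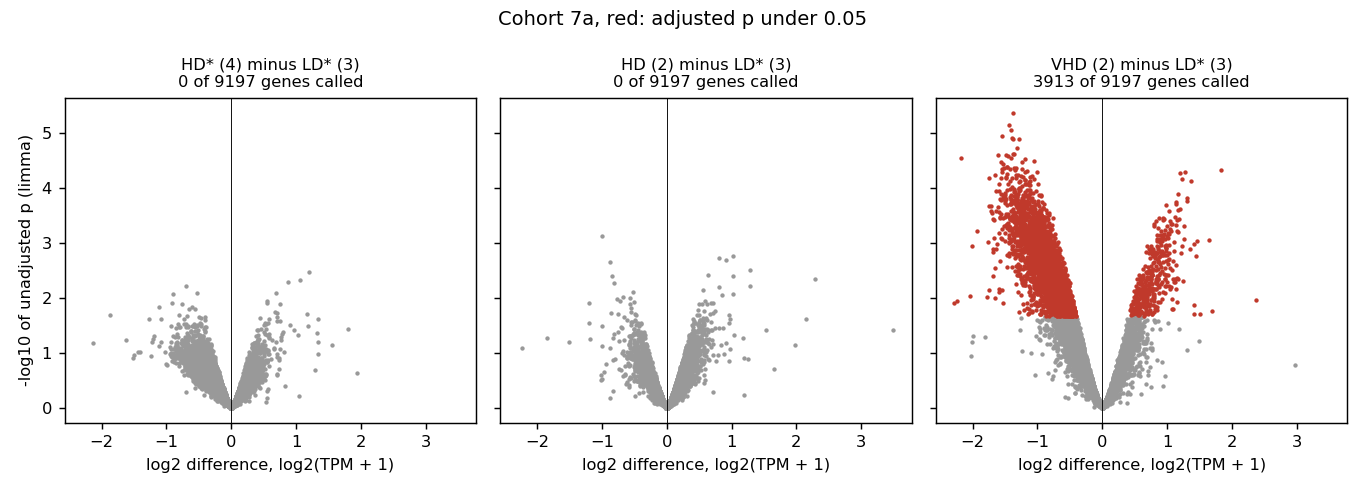
Difference in log2(TPM + 1) against the negative log10 of the unadjusted p from limma for 9197 genes, for HD*, HD and VHD minus the same 3 LD* animals, with genes at an adjusted p under 0.05 in red. No gene is red in the first 2 panels, and 406 higher and 3507 lower genes are red in the third, where most points lie left of 0.

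Cytosolic ribosomal protein genes, the subunits of the translating ribosome, ran against the general shift. In HD* minus LD*, 76 of the 78 tested were above 0 with a median of 0.31, beside −0.20 over all genes, yet 0 passed. The VHD animals carried this, since the median was −0.27 for HD minus LD* and 0.88 for VHD minus LD*. In VHD minus LD*, 73 of 78 rose, beside 4.41% of all genes, and after TMM rescaling 75 rose. The mean of the list, set to 0 for the LD* mean, was 0.34, −0.14 and −0.20 in LD* 1, 2 and 3, −0.24 and −0.28 in HD, 0.80 and 0.90 in VHD, and −0.18 and 0.69 in the controls. Control 2 and, to a lesser degree, LD* 1 were thus high as well. RPS6, a small-subunit protein phosphorylated by S6 kinase, was at 2182, 1392 and 1304 TPM in LD*, 1295 and 1225 TPM in HD, 3275 and 3166 TPM in VHD and 1338 and 3057 TPM in the controls, and VHD minus LD* was 1.02 ± 0.23 (adjusted p = 0.0119). RPL27A, of the large subunit, was at 683, 497 and 474 TPM in LD*, 467 and 428 TPM in HD and 1234 and 1409.9 TPM in VHD, with 1.28 ± 0.19 (adjusted p = 0.0102).

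Translation initiation factors were called lower about as often as all genes. Of 47 tested, 1 rose and 18 fell in VHD minus LD* (38.3%, beside 38.1% of all genes), and after TMM rescaling 5 rose (10.6%, beside 11%) and 1 fell. EIF4EBP1, a repressor of cap-dependent initiation, rose by 0.87 (adjusted p = 0.0233), and EIF2S3, a subunit of initiation factor 2, fell (−0.67, adjusted p = 0.015, but 0.175 after rescaling). Respiratory chain genes had a median of 0.09 in HD* minus LD* with 50 of 74 above 0 (67.6%, beside 22.9% of all genes). Against LD*, VHD animals had 22 of them called higher (29.7%, beside 4.41% of all genes) and 8 lower (10.8%, beside 38.1%), or 39 (52.7%, beside 11%) and 1 after rescaling. NDUFB1, an accessory subunit of complex I, was at 861, 653 and 629 TPM in LD*, 692 and 679.6 TPM in HD and 1122 and 1376 TPM in VHD (0.81 ± 0.19, adjusted p = 0.0128). NDUFS1, the largest core subunit of the same complex, went the other way, at 69.9, 87.1 and 78.7, 87.9 and 75.1 and 37.6 and 35.6 TPM (−1.08 ± 0.17, adjusted p = 0.0102).

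Genes of the inhibitory synapse were lower in the HD* group as a whole but, like all genes tested, did not pass. All 20 tested GABA genes were below 0 in HD* minus LD*, with a median of −0.54 beside −0.20 for all genes and −0.33 after TMM rescaling, and 0 were called. HD minus LD* had a median of 0.0002, whereas in VHD minus LD* 16 of 20 fell (38.1% of all genes did), with a median of −1.08, and 9 fell after rescaling (45%, beside 7.23%). GAD2, a GABA synthesis enzyme, was at 168, 314 and 302 TPM in LD*, 339.9 and 273 TPM in HD, 105 and 89.4 TPM in VHD and 287 and 95.6 TPM in the controls. VHD animals and Control 2 were thus below every other animal, and VHD minus LD* was −1.37 ± 0.26 (adjusted p = 0.0102). GABRB1, the GABA-A receptor beta 1 subunit, was the GABA gene with the smallest p in HD* minus LD*, at 41.1, 34.9 and 52.2 TPM in LD*, 33.4 and 33.6 TPM in HD and 17.6 and 23.4 TPM in VHD, a difference of −0.67 ± 0.26 (adjusted p = 0.697). Here the HD animals, too, were below all LD* animals, while Control 1 was at 52.8 TPM and Control 2, at 19.3 TPM, was at the VHD level. GABRD, a subunit of extrasynaptic receptors, was at 187, 247 and 267, 320.5 and 261 and 143 and 154 TPM in LD*, HD and VHD, the HD animals being at the level of the upper LD* animals or above.

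Genes of the excitatory synapse behaved alike in direction. Of 30 glutamate receptor and postsynaptic genes tested, 26 were below 0 in HD* minus LD* (86.7%, beside 77.1% of all genes, median −0.37) and 0 passed. In VHD minus LD*, 1 rose and 18 fell (60%, beside 38.1%), and 2 rose and 8 fell after rescaling (26.7% lower, beside 7.23%). GRM5, the metabotropic glutamate receptor 5, was at 36.6, 70.4 and 85.7 TPM in LD*, 71.2 and 59.8 TPM in HD and 22.7 and 18.4 TPM in VHD (−1.52 ± 0.30, adjusted p = 0.0105). LD* 1 was intermediate and Control 2, at 21.2 TPM, was at the VHD level. GRIA3, an AMPA receptor subunit, was at 53.1, 77.3 and 75.6 TPM in LD*, 86.5 and 74.8 TPM in HD and 31.8 and 23.4 TPM in VHD (−1.28 ± 0.21, adjusted p = 0.0102). CAMK2A, the alpha subunit of the calcium/calmodulin kinase of the postsynaptic density, differed from these, since HD and VHD were alike. It was at 923, 713 and 705 TPM in LD*, 624 and 502 TPM in HD and 595 and 517 TPM in VHD without overlap (−0.47 ± 0.19, adjusted p = 0.697, exact permutation p = 0.0286), and the controls were at 475 and 674 TPM. SHANK2, a postsynaptic scaffold, was at 18.8, 20.01 and 21.4, 17.4 and 14.1 and 12.8 and 10.4 TPM in LD*, HD and VHD, again with no overlap. NRGN (neurogranin, a calmodulin-binding postsynaptic protein) was the gene of this list with the smallest p among those higher in HD*, at 1142, 1167 and 1193 TPM in LD*, 1870.1 and 2386 TPM in HD and 1086 and 2189 TPM in VHD, where VHD 1 was below all LD* animals.

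Presynaptic genes followed the VHD animals. Of 29 synaptic vesicle genes, 28 were below 0 in HD* minus LD* (96.6%, beside 77.1% of all genes, median −0.36, 0 called). In VHD minus LD* 21 fell (72.4%, beside 38.1%), and 9 fell after rescaling (31%, beside 7.23%). SYT1, the calcium sensor of fast release, was at 232, 355 and 380.4 TPM in LD*, 315 and 414 TPM in HD, 132 and 104 TPM in VHD and 400.3 and 163 TPM in the controls (−1.42 ± 0.23, adjusted p = 0.0102). SNAP25, a SNARE protein, was at 1103, 1189.6 and 1422 TPM in LD*, 1287 and 1698 TPM in HD and 653 and 594 TPM in VHD (−0.98 ± 0.19, adjusted p = 0.0102, but 0.0809 after rescaling). CPLX2, a complexin that clamps the SNARE complex, was lower in both kinds of heavy drinker, at 1063, 833 and 682 TPM in LD*, 664 and 532 TPM in HD and 551 and 642 TPM in VHD. The groups did not overlap, VHD minus HD was 0.00 and HD* minus LD* was −0.51 ± 0.21 (adjusted p = 0.697).

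Of 29 potassium channel genes, 26 were below 0 in HD* minus LD* (89.7%, beside 77.1% of all genes, median −0.33, 0 called). VHD minus LD* had 18 called lower (62.1%, beside 38.1%), or 8 after rescaling (27.6%, beside 7.23%). KCND2, the pore subunit Kv4.2 of the A-type current, was at 19.5, 23.3 and 21.9 TPM in LD*, 23.8 and 23.2 TPM in HD and 8.54 and 6.05 TPM in VHD (−1.46 ± 0.20, adjusted p = 0.0102, 0.0262 after rescaling). KCNIP2, an auxiliary subunit of the same channels, was at 219, 245 and 232, 257 and 249 and 148 and 159 TPM (−0.59 ± 0.15, adjusted p = 0.0145, but 0.476 after rescaling). KCNJ9, a G protein-gated inward rectifier, was at 62.2, 93.5 and 83.5 TPM in LD*, 92.5 and 82.6 TPM in HD and 41.6 and 42.9 TPM in VHD. In none of these 3 genes did the HD animals lie below the LD* animals.

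The medium spiny neuron list, which also serves as the check of the tissue, had a median of −0.20 in HD* minus LD*, the same as all genes, with 6 of 25 above 0. HD and VHD diverged, with medians of 0.35 and −0.74 against LD*. In VHD minus LD*, 0 rose and 14 fell (56%, beside 38.1% of all genes), and 4 fell after rescaling (16%, beside 7.23%). DRD1, the dopamine D1 receptor, was at 142, 181 and 185 TPM in LD*, 203 and 171 TPM in HD, 76.8 and 65.2 TPM in VHD and 205 and 53.4 TPM in the controls (−1.24 ± 0.18, adjusted p = 0.0102, 0.0262 after rescaling). DRD2, the D2 receptor, was at 168, 255 and 331 TPM in LD*, 361 and 333 TPM in HD and 140.1 and 239 TPM in VHD. VHD 2 thus lay within the LD* range for DRD2, and VHD minus LD* did not pass (−0.40 ± 0.29, adjusted p = 0.278). PENK, the enkephalin precursor of D2 neurons, was at 1612, 2946 and 3853 TPM in LD*, 4443 and 3253 TPM in HD and 2071 and 1983 TPM in VHD, and also did not pass (adjusted p = 0.355). PDYN, the dynorphin precursor of D1 neurons, was at 395, 713 and 964 TPM in LD*, 667 and 675 TPM in HD and 364 and 289 TPM in VHD (−0.998 ± 0.31, adjusted p = 0.0273, but 0.175 after rescaling). The list mean was lowest of all in Control 2, at −1.37 relative to LD*, beside −0.88 and −0.62 in the VHD animals. In these bulk samples, fewer neurons and less RNA per neuron cannot be told apart.

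Of 15 opioid, cannabinoid and other neuropeptide receptor genes, 12 were below 0 in HD* minus LD* (80%, beside 77.1% of all genes, median −0.38, 0 called). In VHD minus LD* 10 fell (66.7%, beside 38.1%), and 1 rose and 3 fell after rescaling (20% lower, beside 7.23%). OPRK1, the kappa opioid receptor, was at 16.3, 21.7 and 39.3 TPM in LD*, 38.3 and 25.6 TPM in HD and 10.0 and 8.44 TPM in VHD (−1.30 ± 0.33, adjusted p = 0.0146, but 0.0627 after rescaling). OPRM1, the mu opioid receptor, was below the filter, at 1.11, 3.24 and 6.83, 4.11 and 2.58 and 1.18 and 1.02 TPM. CNR1, the cannabinoid receptor 1, was at 17.9, 25.7 and 38.2, 28.5 and 42.8 and 13.8 and 17.0 TPM and did not pass (adjusted p = 0.0705). All 9 interneuron genes tested were below 0 in HD* minus LD* (median −0.33), with 0 called there. The 3 called lower in VHD minus LD* were a smaller share than of all genes (33.3%, beside 38.1%), and 1 was lower after rescaling. SST (somatostatin) was at 538, 1176 and 1123 TPM in LD*, 877 and 973 TPM in HD and 719 and 288 TPM in VHD, which overlapped. Of 17 immediate early genes, which follow recent neuronal activity, 13 were below 0 in HD* minus LD* (76.5%, beside 77.1% of all genes, median −0.25) and 0 passed. The count that fell in VHD minus LD* was 5 (29.4%, under the 38.1% of all genes), or 0 after rescaling. EGR1 was at 38.7, 76.3 and 94.1, 60.1 and 125 and 23.99 and 37.8 TPM in LD*, HD and VHD.

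**Figure D4:**
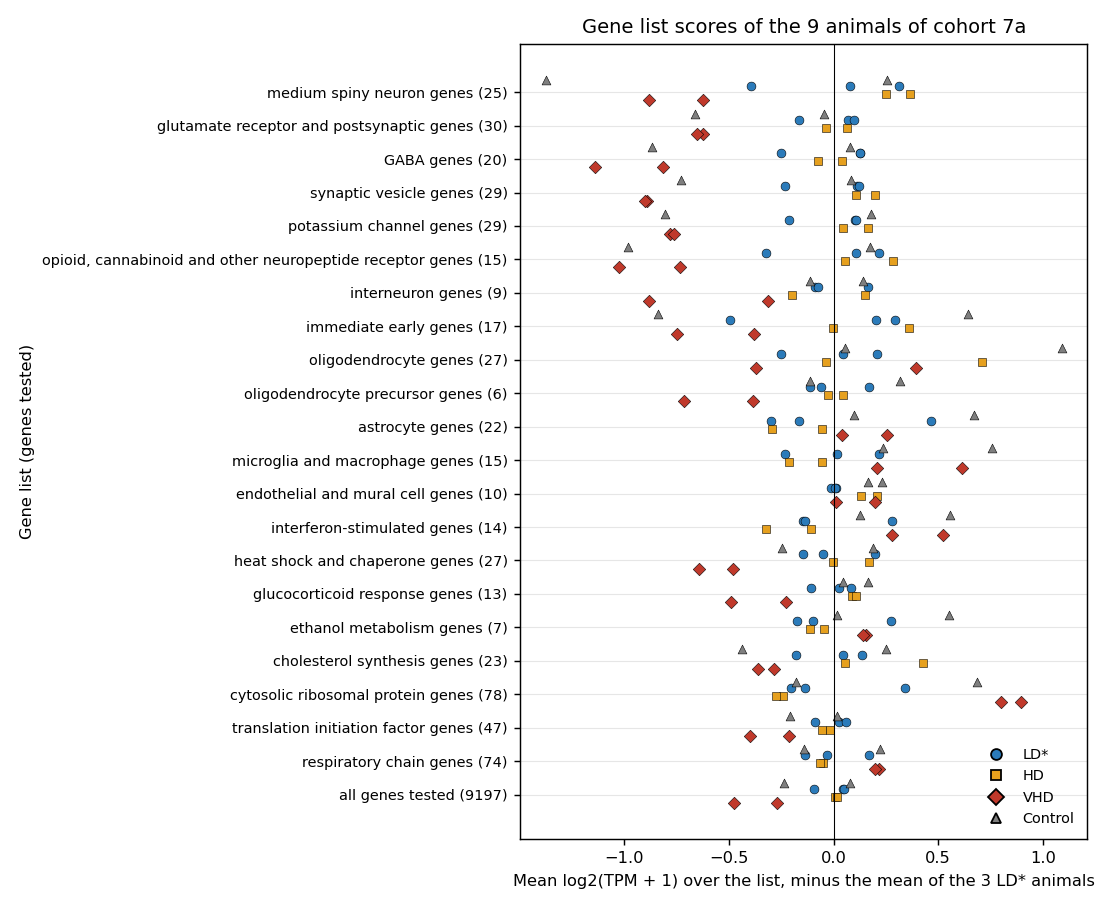
Mean log2(TPM + 1) of each gene list in the 9 animals of cohort 7a, minus the mean of the 3 LD* animals, with 1 point per animal and the number of genes tested in brackets. The VHD animals and Control 2 lie below the other 6 animals in the medium spiny neuron, glutamate, GABA, synaptic vesicle, potassium channel and neuropeptide receptor lists, not in the interneuron and immediate early lists, and above them, at 0.80, 0.90 and 0.69, in the ribosomal protein list.

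Markers of glia and vessels gave no called gene in HD* minus LD*, where no gene of any kind was called. Of 27 oligodendrocyte genes, 17 were above 0 (63%, beside 22.9% of all genes, median 0.15). In VHD minus LD* 3 rose (11.1%, beside 4.41% of all genes) and 2 fell (7.41%, beside 38.1%). After rescaling 5 rose (18.5%, beside 11%) and 0 fell (beside 7.23%). MBP, a myelin protein, was at 499, 250.3 and 284 TPM in LD*, 269 and 512 TPM in HD, 930.2 and 875 TPM in VHD and 648 and 645 TPM in the controls (1.46 ± 0.32 for VHD minus LD*, adjusted p = 0.0116). The oligodendrocyte list mean was 0.71 in HD 2 and −0.04 in HD 1, and 0.39 in VHD 1 and −0.37 in VHD 2, so it varied as much within categories as between them. Of 6 oligodendrocyte precursor genes, 5 were below 0 in HD* minus LD* (83.3%, beside 77.1% of all genes). In VHD minus LD* 3 of them fell (50%, beside 38.1% of all genes, and 0 after rescaling). Astrocyte genes had a median of −0.06, with 10 of 22 above 0 (45.5%, beside 22.9% of all genes). In VHD minus LD* 2 rose (9.09%, beside 4.41% of all genes) and 1 fell (4.55%, beside 38.1%). After rescaling 2 rose (9.09%, beside 11%) and 0 fell (beside 7.23%). GFAP, the astrocyte filament protein, ranged from 3328, 835 and 442 TPM within LD* alone, which is wider than its difference between the groups (0.57 ± 0.73).

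Of 15 microglia and macrophage genes, 8 were above 0 in HD* minus LD* (53.3%, beside 22.9% of all genes, median 0.06). Of the 15 genes, 6 rose and 0 fell in VHD minus LD* (40% higher, beside 4.41% of all genes), and 8 rose after rescaling (53.3%, beside 11%). C1QB, a subunit of the complement component that microglia make in brain, was at 135, 85.7 and 77.5 TPM in LD*, 108 and 91.5 TPM in HD, 227 and 159 TPM in VHD and 129 and 217 TPM in the controls (0.97 ± 0.25, adjusted p = 0.0156). Control 2 was again at the VHD level. Interferon-stimulated genes had a median of 0.07, with 8 of 14 above 0 (57.1%, beside 22.9% of all genes). In VHD minus LD* 4 rose and 1 fell (28.6% higher, beside 4.41%), or 6 and 0 after rescaling (42.9% higher, beside 11%). ISG15, a ubiquitin-like protein induced by interferon, was at 15.4, 6.23 and 6.83 TPM in LD*, 5.09 and 3.96 TPM in HD and 14.4 and 26.8 TPM in VHD, with LD* 1 above VHD 1. Of 10 endothelial and mural genes 6 were above 0, CLDN5 among them (60%, beside 22.9% of all genes). In VHD minus LD*, 3 rose (30%, beside 4.41%) and 0 fell, and 3 rose after rescaling (30%, beside 11%). Of the blood cell, cortical projection neuron and ependymal lists 1, 2 and 3 genes were abundant enough to test, and 0 were called, save 1 ependymal gene that rose in VHD minus LD* after rescaling. Their summed levels ran from 9.85 to 24.8, 523 to 717 and 81.5 to 136 TPM in LD* and from 12.5 to 29.5, 351 to 655 and 74.9 to 189 TPM in HD*. Most of the cortical projection neuron sum was LAMP5, at 413, 522 and 716 TPM in LD*, and not SLC17A7, whose uneven levels are given above. ALAS2 of red cells was at 0 in 6 of the 7 animals.

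Stress and metabolic genes were without a call in HD* minus LD*, like all genes tested. Of 27 heat shock and chaperone genes 22 were below 0 (81.5%, beside 77.1% of all genes, median −0.25). In VHD minus LD* 16 fell (59.3%, beside 38.1% of all genes), or 4 after rescaling (14.8%, beside 7.23%). HSPH1, a cytosolic chaperone, was at 162, 252 and 404 TPM in LD*, 349.9 and 264 TPM in HD and 104 and 84.1 TPM in VHD (−1.43 ± 0.32, adjusted p = 0.0118). Of 13 glucocorticoid response genes 10 were below 0 (76.9%, beside 77.1% of all genes, median −0.25). The VHD minus LD* contrast had 2 higher (15.4%, beside 4.41%) and 7 lower (53.8%, beside 38.1%), or 2 and 1 after rescaling (15.4%, beside 11%, and 7.69%, beside 7.23%). MT2A, a metallothionein, was at 361, 320.4 and 313 TPM in LD*, 353 and 351 TPM in HD and 527 and 623 TPM in VHD (0.79 ± 0.16, adjusted p = 0.0105), whereas SGK1, a kinase induced by glucocorticoids, was at 54.1, 64.2 and 88.3, 75.6 and 70.2 and 53.0 and 26.5 TPM. The ethanol metabolism list had 7 tested genes with a median of −0.04 in HD* minus LD* and 0 called in VHD minus LD*, or 1 higher after rescaling. ALDH2, the mitochondrial acetaldehyde dehydrogenase, was at 542, 348 and 325 TPM in LD*, 413 and 311 TPM in HD and 578 and 639.8 TPM in VHD (0.62 ± 0.23, adjusted p = 0.0522, and 0.0396 after rescaling), and ADH5 was at 121, 111 and 105, 93.1 and 107 and 129.5 and 108 TPM. Of 23 cholesterol synthesis genes 12 were above 0 (52.2%, beside 22.9% of all genes, median 0.001). In VHD minus LD* 7 fell (30.4%, under the 38.1% of all genes), while 2 rose and 0 fell after rescaling. SQLE, the squalene epoxidase of that pathway, was at 38.3, 72.8 and 69.4 TPM in LD*, 70.9 and 88.4 TPM in HD and 31.7 and 28.3 TPM in VHD (−0.93 ± 0.26, adjusted p = 0.0206, but 0.134 after rescaling).

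The same drinking groups could be compared in animals that cohort 7a does not hold, as HD* minus controls of cohort 5 less LD* minus controls of cohort 7b. That contrast gave 0 genes at an adjusted p under 0.05 (limma, smallest adjusted p = 1.000) and 307 at an unadjusted p under 0.05. Its difference from the cohort 7a contrast gave 0 genes as well (smallest adjusted p = 0.892), with 333 at an unadjusted p under 0.05. Over the 9197 genes the 2 contrasts had the same sign for 4760 (51.8%), with a Pearson r of 0.114 and a Spearman rho of 0.252 across genes, which are not independent replicates. Of the 20 genes with the smallest p in cohort 7a, 8 had the same sign there. CLDN5 stood at 0.48 and WIF1 at −1.64 in the other cohorts, in the same direction as in cohort 7a. KLK8 stood at −2.40, CD3D at −2.99 and ZCCHC12 at 1.83, in the opposite direction. For CLDN5 the cohort 5 HD* animals were not above their controls (−0.09). Its 0.48 came from the cohort 7b LD* animals, at −0.58 against their controls. In cohort 7a, CLDN5 stood at 0.45 for HD* minus controls and −0.10 for LD* minus controls. Within cohort 7a, 0 genes passed for LD* minus controls (smallest adjusted p = 0.982, 148 at an unadjusted p under 0.05) or HD* minus controls (smallest adjusted p = 1.000, 214 at an unadjusted p under 0.05), comparisons that share these drinkers.

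The division of heavy drinkers into HD and VHD was also present in cohort 5, with 2 animals of each and no animal in common. Cohort 5 itself gave 0 genes for VHD minus HD (limma, smallest adjusted p = 0.691, 406 at an unadjusted p under 0.05). Its differences nevertheless ran with those of cohort 7a, with a Pearson r of 0.630 and a Spearman rho of 0.687 across the 9197 genes and the same sign for 6618 of them (72.0%). Of the 444 genes called higher in cohort 7a, 426 (95.9%) were above 0 in cohort 5, and of the 3290 called lower, 2912 (88.5%) were below 0, beside 4129 above 0 and 5068 below 0 of all 9197. Ribosomal protein genes were above 0 in both cohorts for 77 of 78, with medians of 1.15 in cohort 7a and 0.44 in cohort 5. All 25 medium spiny neuron genes were below 0 in both, with medians of −1.05 and −1.07. GABA genes had medians of −1.16 and −0.32, and synaptic vesicle genes −1.14 and −0.41. Animals of other drinking groups also lay on the VHD side of the first principal component, with scores of 32.3 in a cohort 7b LD* animal and 39.6 in a cohort 7b control beside 7.81 and 14.2 in the cohort 5 VHD animals. The relation of this shared direction to drinking category was not tested.

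**Figure D5:**
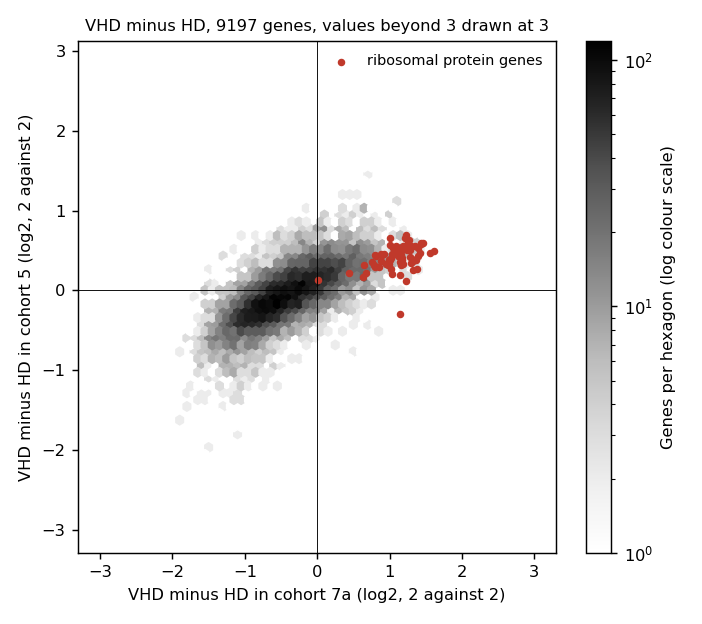
VHD minus HD difference in log2(TPM + 1) in cohort 7a (horizontal) against cohort 5 (vertical), each 2 against 2 animals, with the density of 9197 genes in grey and the 78 ribosomal protein genes in red. Of the ribosomal protein genes 77 lie above 0 in both cohorts, and the cloud of all genes runs from lower left to upper right with r of 0.630.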

How the data were processed

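RNA-Seq had been made from the NAcc core of 24 rhesus macaques. Per the labels and methods, polyA-selected libraries were aligned with STAR 2.5.2b to the MacaM assembly and counted on genes with HTSeq 0.6.1p1. The authors' deposited values are named as normalized counts but were taken as TPM, because every animal's values add up to nearly the same sum. How counts became TPM and which gene lengths were used are not given in the sources used here, and the series text and the protocols differ on strand and pairing. Columns add up to at least 999998. In each of the 24 animals, between 2.85% and 4.70% of the 2000 lowest values above 0 were whole multiples of the lowest. The tolerance was 0.02, at which chance gives 4%. Whole reads could therefore not be recovered and the depth of each animal is unknown. No column was left out, and 27 symbols that a spreadsheet had turned into dates were kept.

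Groups came from the labels. Values were transformed to log2(TPM + 1), filtered at a mean of 10 TPM over the 24 animals (9197 of 17208 genes) and tested with limma 3.58.1 in R 4.3.3 (empirical Bayes with a trend, 2-sided, Benjamini-Hochberg adjustment, threshold 0.05), since TPM do not allow the count test of the study. HD* (4) against LD* (3) was fitted on the 7 animals, the categories as 3 groups on the same 7, cohort 7a with controls on 9, and the other cohorts on 24 animals with a mean for each cohort and group. Each sample is a different animal. Scripts were tested on simulated data. TMM rescaling was computed on TPM, trimming 30% of M and 5% of A. Figures used Python 3.11.15, pandas 2.3.3, numpy 2.4.6 and matplotlib 3.10.9. Genes named are the 10 with the smallest p in each direction, marker genes marked in 24 lists, the member of each list with the smallest p in each direction, and the 3 genes with the smallest p for VHD minus HD in each direction, and the text gives a part of them. A few of them are not reported here. The groups, lists and genes were chosen with earlier results of these data known. Alternatives were other pseudocounts (0.1 and 8), filters (1 and 100 TPM, none), TMM, array weights, an oligodendrocyte covariate, no trend, more animals in the model, exact permutation, and each animal left out. Those applied to the HD and VHD split, and the models without either category, were chosen after seeing the data.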

Additional observations from a re-analysis of the deposited data

Results flagged for a closer look

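Of 126 named genes whose 4 HD* values were tested for a value far from the other 3 (Dixon's test at 95%, which flags about 1 in 20 ordinary groups), 5 had one. VHD 2 was apart for PTPRZ1 (51.7 TPM), KCNN1, a calcium-activated potassium channel (114 TPM), MGLL, the enzyme that breaks down the endocannabinoid 2-arachidonoylglycerol (225 TPM), and ALDH1A1, a cytosolic aldehyde dehydrogenase (301 TPM). HD 2 was apart for SLC17A7 (186 TPM).

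The HD and VHD effects differed by the test of their difference for 3734 genes, a count that was 0 without VHD 2 and 0 with the controls in the model. Among them were 61 of the genes named by rule that are reported here. In all, 126 named genes were tested, a few of which are not reported. Of all 9197 genes, 444 were called higher (4.83%) and 3290 lower (35.8%) in this contrast, and 1821 were called after TMM rescaling. The values that follow are VHD minus HD on the log2 scale, as deposited. They are to be read against a median of −0.43 over all genes. Among the 20 genes with the smallest p these were FAM173A at 1.31, GUCY1A3 at −0.83, PDE8B at −0.77, RPUSD4 at −0.66, TTC19 at −0.50 and TRANK1 at −0.74. Genes named for a small p in this contrast were RPL27A at 1.56, TPM2 (a tropomyosin) at 1.28, PRKCD (protein kinase C delta) at −1.68, NEFL (the light neurofilament) at −1.54 and CHRM4 (the muscarinic M4 receptor) at −1.60. PRKCD was at 95.5 and 89.3 TPM in the HD animals and at 25.8 and 30.8 TPM in the VHD animals, with Control 2 at 25.7 TPM.

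For striatal neurons and their peptides, PPP1R1B was at −0.82, DRD1 at −1.38, DRD2 at −0.92, PDYN at −1.05 and GPR52 at −1.28. At glutamate synapses, GRIA3 was at −1.52, GRM5 at −1.63, GRM7 at −1.41 and HOMER1 at −1.09. Among GABA genes, GABRA4 was at −1.08, GABRB1 at −0.70, GABRD at −0.96, GAD1 at −1.31 and GAD2 at −1.64. Among vesicle genes, SNAP25 was at −1.25, SYT1 at −1.62, SV2C at −1.83, STX1A at −0.57 and the acetylcholine transporter SLC18A3 at −1.26. Among channels and receptors, KCND2 was at −1.58, KCNIP2 at −0.72, KCNIP4 at −0.89, KCNJ9 at −1.03, KCNT1 at −0.99, OPRK1 at −1.66 and CNR1 at −1.14, and the activity gene EGR1 was at −1.49. Among glial and immune genes, MBP was at 1.28, MYRF at −0.93, PDGFRA at −0.92, LHFPL3 at −0.72, S100B at 1.40, C1QB at 0.93, ISG15 at 1.91 and IFI27 at 1.10. Among stress and metabolic genes, HSPA5 was at −1.24, HSPH1 at −1.69, FKBP5 at −1.09, SGK1 at −0.94, MT2A at 0.70, NR3C2 at −0.82, ALDH2 at 0.76 and SQLE at −1.37. Among ribosomal and respiratory genes, RPL13 was at 0.99, RPS6 at 1.35, RPL29 at 0.76, NDUFA1 at 0.57, COX4I1 at 0.75, NDUFB1 at 0.86 and NDUFS1 at −1.13.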

How the results depend on the processing

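HD* minus LD* gave 0 called genes under every alternative that kept both categories of heavy drinker, and also without the 2 VHD animals, while without the 2 HD animals it gave 3114. Array weights came nearest, with a smallest adjusted p of 0.0577, but that fit did not converge. The unadjusted counts were 49 higher and 388 lower with 24 animals and 81 and 606 without HD 1. The 20 genes with the smallest p kept their sign in every alternative, which was close to given because they were picked on these same animals. TMM rescaling turned the sign of 12 of 126 named genes and of 5 of 24 list medians, and leaving out the VHD animals turned 55 and 17. VHD minus LD* gave 1679 genes after TMM rescaling, 762 at a filter of 100 TPM, which tests fewer genes (1925), 0 with 9 animals, and 0 to 4947 with each animal left out. VHD minus HD gave 1821, 865 and 0 in the same settings, 2253 with the oligodendrocyte score as a covariate, and 0 to 4512 with each animal left out. HD minus LD* gave 0 to 2 with each animal left out. The cause of these changes was not tested. Where a fit without 1 animal left a single HD or VHD animal, that animal was assumed to vary like the others. TPM hold no depth, so its effect could not be examined. No paired analysis was possible because the labels carry no replicate numbers and nothing ties an LD* animal to an HD* animal.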

Other observations

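In none of 7 other T cell genes, chosen after the values of CD3D were seen, did all HD* animals lie above all LD* animals. CD3E was at 19.5, 28.7 and 44.6 TPM in the LD* animals, 46.9 and 26.9 TPM in the HD animals and 20.5 and 19.0 TPM in the VHD animals, so its groups overlapped. CD3G had a mean of 1.44 TPM over the 24 animals. CD4, which macrophages carry too, was at 1.67, 13.0 and 8.81 TPM in LD*, 18.8 and 8.73 TPM in HD and 27.9 and 17.4 TPM in VHD, so 3 of the 4 HD* animals lay above all LD* animals. CD2, a surface protein of T cells, was at 0.76 TPM or below in every one of them.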
